A study of Mus with 438 samples.

Results

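The open chromatin regions described here were more open in mouse cones with the thyroid hormone receptor than in cones without it, per the name of the list they come from, and overlapped no region where the receptor was found on DNA. They were the regions of the induced P30 ATAC-seq list with 0 bp of overlap to the E18 receptor-bound list. Of 5049 induced regions, 3757 met this rule and are called unbound induced regions, and 1292 overlapped a receptor-bound region. A companion list holds 4072 suppressed open regions, and the bound list held 4590 regions. How regions were called induced or suppressed is not given in the sources used here.

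All mice were of the C57BL/6 strain. ATAC-seq, which reads open chromatin with a cutting and tagging enzyme, was made at postnatal day 30 from immunopurified cone nuclei of Trb2Cre-het:Sun1-gfp (control, 2 samples) and Trb2Cre-KO:Sun1-gfp mice (2 samples). The driver inserts Cre at the receptor gene, so the controls also carry a Cre allele there. Receptor-bound regions came from ChAP-seq, a streptavidin pull-down of a biotin-tagged receptor with its DNA, in whole retina of ThrbHAB:BirA (2) and BirA embryos (2) at E18. The bound list thus comes from an earlier age and a mixed tissue, so binding at P30 itself was not measured here. RNA came from fluorescent cells picked one by one, cones from superior or inferior pieces of retina, with SMART-Seq v4 libraries. Trb2Cre-het:Ai6 control cones were taken in 5 collections. There were 26 superior and 30 inferior cells at P2, 24 on each side at P8 and at P21, 26 and 21 at P60, and 53 and 50 in a collection labelled 2m, for an age of 2 months. Trb2Cre-KO:Ai6 cones (50 and 48) and tgNrl:gfp rods (29 cells) were of the 2m age. The labels name no animal, so each group of cells was taken as 1 sample and differences between single groups carry no test.

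As background, the receptor encoded by Thrb is a nuclear receptor that binds DNA with or without hormone, and its cone isoform TRβ2 is needed for M opsin in mouse cones. Without it, cones make S opsin across the whole retina. Open chromatin is common at promoters and enhancers, though openness alone does not show that an element is in use. Such regions can lie inside a gene, beside it or far from it.

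Depth per cell was 8.98e+05 to 3.26e+07 reads, with the 2m collections deeper than the others. The summed level of 7 cone markers was 6638 to 102189 CPM (reads scaled to a common library total) in the cone groups and 19.1 CPM in rods. The summed level of 5 rod markers was 456 to 19649 CPM in cones and 125562 CPM in rods. Thrb was at 213 CPM (superior) and 170 CPM (inferior) in 2m controls against 43.2 and 33.9 CPM in the knockout. Xist, which marks cells with 2 X chromosomes, was at 177 and 142 CPM in knockout cones, 8.61 and 19.1 CPM in 2m controls and 0 at P60. Xist thus differed between the collections as genotype did, and its part in the results on X-linked genes was not tested. Library 35 of the superior knockout cones was low in the cone genes Opn1sw, Arr3, Gnat2, Pde6h and Pde6c. It had 225 CPM of Opn1sw where the lowest of the other 49 had 42658 CPM, and 2.31 CPM of Pde6h against 600 CPM. Not every gene looked at was low, since Ramp2 was at 40938 CPM against a median of 13183 CPM in the other 49. A pair of P60 superior libraries (03 and 14) correlated at 0.993 over genes, where the next closest pair of one group reached 0.146, and was averaged as 1 cell, which leaves 429 cells. The main counts of knockout calls are also given without library 35.

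The unbound induced regions were short. Their widths ran from 201 to 2348 bp with a median of 407 bp (quartiles 287 and 635 bp), against medians of 531 bp for bound induced and 485 bp for suppressed regions. Regions under 300 bp made up 28.9% of them, 13.3% of bound induced and 15.5% of suppressed regions. Regions of 1000 bp or more made up 6.92%, 12.2% and 10.3%. A wider region meets a bound window more readily, and each bound region spans 300 bp, so the rule itself favours short regions and no test was made. The 5 widest unbound regions each overlapped the interval of a coding gene. The first, chr12:67220640-67222987 (GRCm38) in Mdga2, lay 2263 kb from the nearest bound region. The others were in Nptx1 (2253 bp), Tshz2 (2231 bp), Plxnc1 (2197 bp) and Shisa6 (2094 bp).

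Unbound and bound induced regions had like positions relative to genes, and suppressed regions differed from both. Inside the interval of a coding gene lay 59.7% of unbound induced, 60.8% of bound induced and 52.3% of suppressed regions. Over 50 kb from any coding gene lay 13.4%, 13.2% and 30.7%. For regions outside coding genes the median distance to one was 21.3, 22.1 and 99.8 kb. Exons and introns are not separated here, since only gene intervals were used.

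The unbound regions lay closer to the receptor's sites than suppressed regions did. Their median distance to the nearest bound region was 69.3 kb (quartiles 19.6 and 208 kb), while suppressed regions that overlap no bound region lay at a median of 358 kb. Within 50 kb of a bound region were 1606 of 3757 unbound regions (42.7%) and 16.6% of those suppressed regions. Within 1 kb were 170 (4.52%) and within 10 kb 610 (16.2%). At the edge of the rule, 75 unbound regions lay within 300 bp of a bound one, the closest at 58 bp. On the other side, 5 bound induced regions had under 100 bp of overlap, the smallest being 29 bp, and 860 held a whole bound window. The 170 unbound regions within 1 kb had a median width of 308 bp, and the 977 farther than 200 kb had 420 bp. The most distant was 5.18 Mb away.

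**Figure D1:**
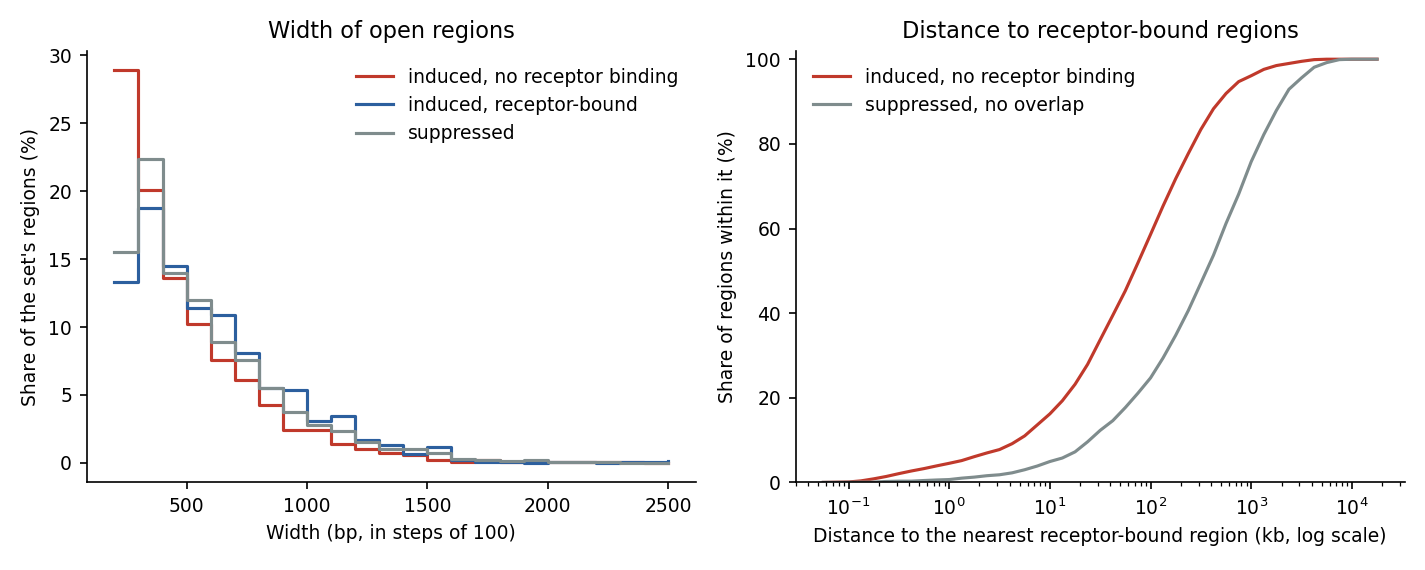
Left, share of regions (%) in 100 bp steps of width for unbound induced (red), bound induced (blue) and suppressed (grey) regions. Right, share of regions (%) within a given distance (kb, log scale) of the nearest receptor-bound region for unbound induced (red) and non-overlapping suppressed (grey) regions, which reach 42.7% and 16.6% at 50 kb.

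Induced regions, bound or not, lay near each other more than near suppressed ones. The nearest other listed open region of an unbound region was itself unbound induced for 64.8%, bound induced for 21.7% and suppressed for 13.5%, while these classes make up 41.2%, 14.2% and 44.6% of the lists. For suppressed regions the nearest was suppressed in 81.2%. With neighbours joined at gaps of at most 1/4 of 50 kb, 1277 unbound regions (34%) fell into 514 clusters and 2480 stood alone. Clusters of 4 or more numbered 57 and held 273 regions. Of suppressed regions, which are similar in number, 25.6% were in clusters. When bound induced regions were counted too, 323 of 770 clusters held both kinds and 411 unbound regions only. In mixed clusters lay 507 unbound regions.

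At 2 loci lay 9 clustered regions each. One spans chr15:100746989-100806907 over Slc4a8, a sodium and bicarbonate transporter, at 173 kb from the nearest bound region. The other spans chr4:152432384-152466927 in Kcnab2, a potassium channel subunit, and 2 receptor-bound regions lie inside this span, between its unbound regions. A run of 8 regions at chr6:136954311-136979644 covered 17.4% of the span over and beyond Pde6h, the inhibitory subunit of the cone phosphodiesterase, at 619 kb from any bound region. Another 8 lay in Tenm4, a teneurin cell adhesion gene, at chr7:96814168-96832962. The cluster at chrX:74127180-74153937 held 7 regions over the M opsin gene Opn1mw and just beyond it, in a span that also meets the coding gene Tex28. The one at chr5:144514848-144558655 held 7 over Nptx2, a neuronal pentraxin of synapses. The X chromosome had 38 unbound regions, or 39.3 per 1000 coding genes, and the other chromosomes 125 to 264.

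**Figure D2:**
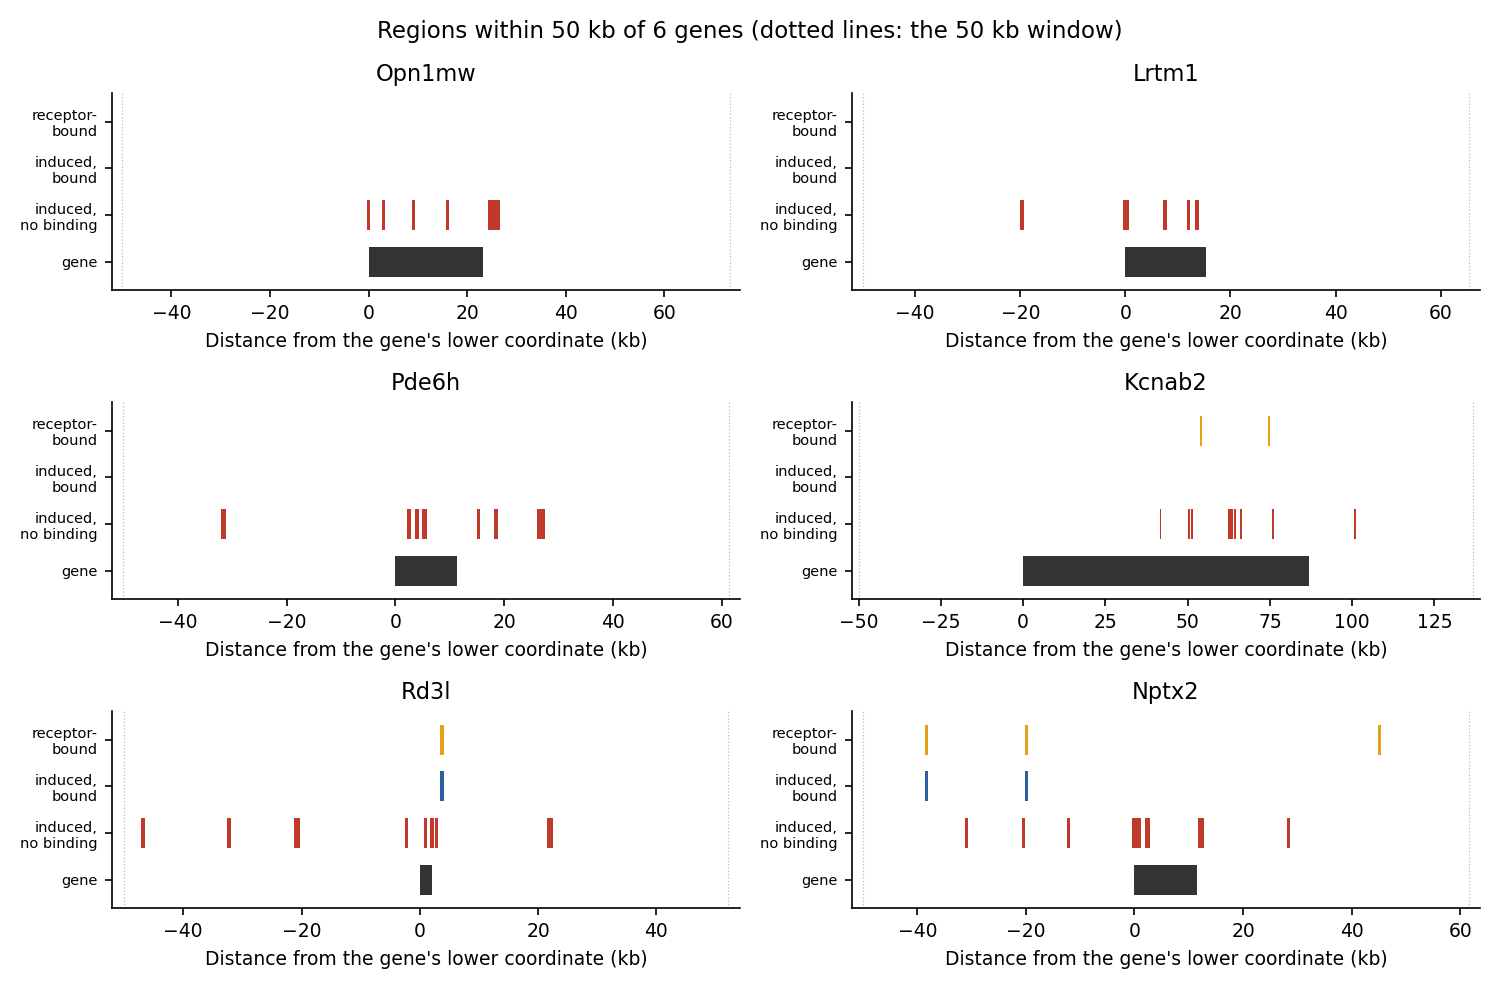
Position (kb from the gene's lower coordinate) of unbound induced, bound induced and receptor-bound regions within 50 kb of 6 genes, with regions under 0.6 kb drawn 0.6 kb wide. Opn1mw, Lrtm1 and Pde6h have unbound induced regions only, Kcnab2 has 2 receptor-bound regions that are not induced, and Rd3l and Nptx2 have bound induced regions among the unbound ones.

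The next question was whether genes close to these regions differ in RNA between knockout and control cones. A gene was called near where its interval lay within 50 kb of a region, which held for 2905 of 10140 measured genes (28.6%), and 66.7% of the unbound regions had a measured gene that close. A gene was called lower or higher where log2(mean CPM + 1) differed by a factor of 2 or more the same way in superior and in inferior cones. On the side with more RNA, the mean of the superior and inferior groups had to be 10 CPM or more, and the mean of their shares of cells above 1 CPM 25% or more, so a gene could pass through 1 zone. Against 2m controls, 63 near genes were lower in the knockout (2.17%, where 1.23% of all measured genes were lower) and 23 were higher (0.792%, where 1.16% of all were higher). Against both the 2m and the P60 controls, 37 were lower (1.27%, where the share of all genes was 0.473%) and 3 were higher (0.103%, where it was 0.187%). Without library 35 these counts were 65, 24, 37 and 3, with the same 37 genes. Thrb, the gene disrupted in the knockout, is among the 63 and the 37, and its call reflects the genotype itself. The 63 genes form 60 groups that share no region. The 2 controls are set against the same knockout cells, so the second pair of counts is not independent of the first. Against P60 controls alone 126 near genes were lower (4.34%, where 2.39% of all were) and 49 higher (1.69%, where 2.11% of all were), or 129 and 48 without library 35.

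The share of genes lower in the knockout was larger among genes with more unbound regions near. It was 0.857% for genes with none, 0.806% with 1, 2.66% with 2, 5.14% with 3 to 4 and 14.3% (16 of 112 genes) with 5 or more, and without library 35 0.871, 0.859, 2.66, 5.48 and 14.3%. The 16 genes form 14 groups that share no region, and they include Thrb, whose call reflects the genotype itself. The median knockout minus control difference was 0.08, 0.08, 0.05, -0.15 and -0.58 on the log2 scale. The share of genes higher in the knockout was 0.893% with 5 or more and 1.31% with none. Gene length moved with the number, from a median of 22.8 kb with none to 40.8 kb with 5 or more. Within genes under 25 kb, a split chosen after seeing the data, the share lower was 1.02% with none and 20% (9 of 45) with 5 or more, and within longer genes 0.676% and 10.4% (7 of 67). Thrb is among these 7.

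Bound induced regions were often close to the same genes. Among near genes with no bound induced region within 50 kb, 31 of 2080 were lower against 2m controls (1.49%, where 1.23% of all measured genes were). Among those that had one, 32 of 825 were (3.88%). Genes with a bound induced region and no unbound one had 8 of 694 lower (1.15%), and genes near suppressed regions only 2 of 972 (0.206%). Without library 35 these 4 counts were 33, 32, 7 and 1. In genes without a bound induced region the share lower was 0.826% with 0 unbound regions, 0.809% with 1, 2.06% with 2, 4.88% with 3 to 4 and 6.82% (3 of 44) with 5 or more (0.856, 0.877, 2.06, 5.49 and 6.82% without library 35). No test was made of these shares, since neighbouring genes share regions and the cells come from 1 collection on each side.

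**Figure D3:**
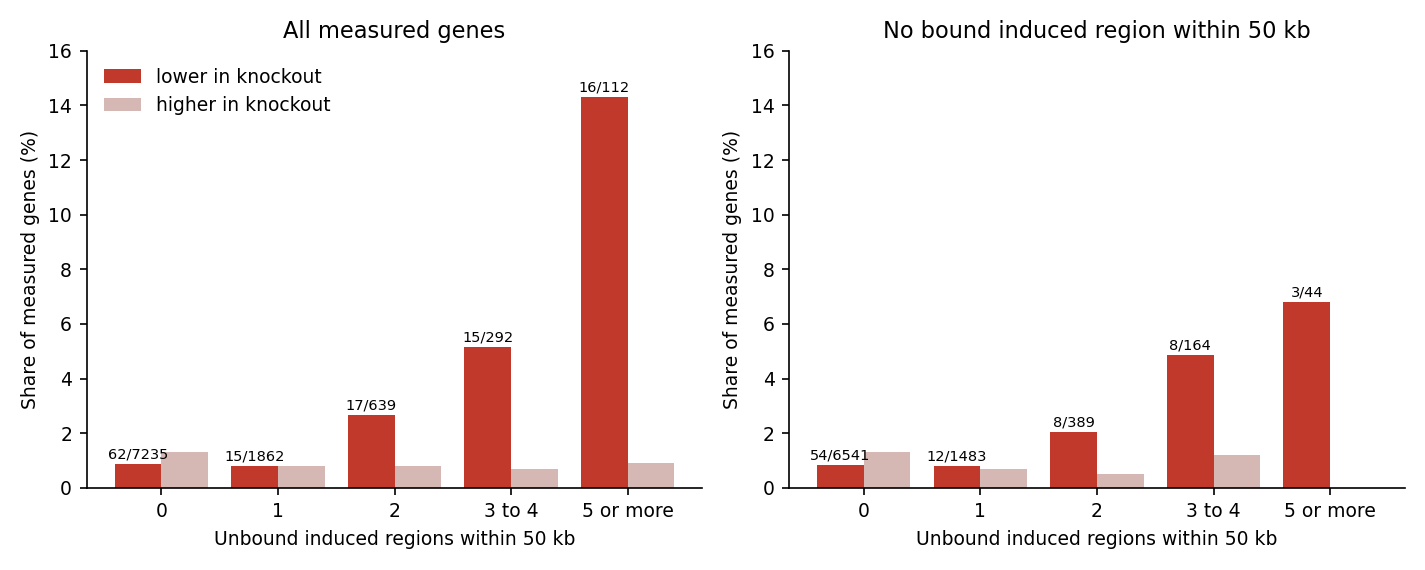
Share of measured genes (%) lower (dark) and higher (pale) in knockout than in 2m control cones by the number of unbound induced regions within 50 kb, for all genes (left) and genes with no bound induced region within 50 kb (right). Each label on a bar gives lower genes of all genes in the bin, and the share lower is 14.3% with 5 or more regions on the left and 6.82% on the right.

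Of 1322 genes with unbound regions near but no receptor-bound region within 50 kb, 6 were lower against both controls (0.454%). This was near the 0.473% of all measured genes. Where a receptor-bound region was also within 50 kb, 31 of 1583 were lower against both (1.96%). Against 2m controls alone the shares were 1.36% and 2.84%, where 1.23% of all were lower. The 6 genes were Opn1mw, Agr2, Lrtm1, Gm4827, Itm2c and Ldhb. Of these, Itm2c falls outside the rule for named genes and was added after its values were seen. M opsin (Opn1mw, chrX:74127466-74150756) had 4 unbound regions of 211 to 634 bp in its interval. A group of 3, up to 1031 bp wide, began 0.919 kb beyond its end. Its nearest bound region was 162 kb away. Across 53 superior 2m control cones Opn1mw ran from 3269 to 22522 CPM with a median of 8277 CPM, and across 50 inferior ones from 0.916 to 15834 CPM with a median of 1992 CPM. In the knockout the median was 0 in both zones, and the highest cells had 194 CPM (superior) and 65.7 CPM (inferior). The superior groups did not overlap, and the inferior groups overlapped through the lowest control cells. The knockout minus control difference was -10.30 superior and -10.43 inferior on the log2 scale.

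Agr2, a disulfide isomerase of the secretory pathway, had 4 unbound regions, 3 of them overlapping its interval with widths of 337 to 811 bp, and its nearest bound region was 89.1 kb away. It was over 1 CPM in 22 of 53 superior and 25 of 50 inferior 2m control cones, up to 332 and 627 CPM, and in 1 of 50 and 0 of 48 knockout cones. Lrtm1, a leucine-rich repeat membrane protein gene, had 5 regions, and its nearest bound region was 235 kb away. Lrtm1 exceeded 1 CPM in 22 of 53 and 25 of 50 control cones and in 0 of 50 and 6 of 48 knockout cones. Gm4827, a long noncoding RNA gene, had 4 regions and its nearest bound region at 1647 kb. It was over 1 CPM in 35 of 53 superior and 32 of 50 inferior controls, with medians of 12.8 and 12.6 CPM, was 0 in each of the 50 superior knockout cones and reached 21.3 CPM in 1 inferior cell. In rods Agr2 and Gm4827 were at 0 in 29 cells. For Agr2, Lrtm1 and Gm4827 many control cells overlapped the knockout cells, and the groups differed in the share and level of positive cells. The 2m control medians were 0.477 (superior) and 0.985 CPM (inferior) for Agr2 and 0.362 and 0.975 CPM for Lrtm1.

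Ldhb, a lactate dehydrogenase subunit, had 1 unbound region of 459 bp 31.8 kb below its interval. Its mean was 166 and 156 CPM in 2m controls, 101 and 61.8 CPM at P60 and 26.5 and 17.4 CPM in the knockout. Itm2c, an integral membrane protein gene at chr1:85894510-85908698 with 4 regions near, differed by -2.34 (2m) and -3.76 (P60) on the log2 scale.

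**Figure D4:**
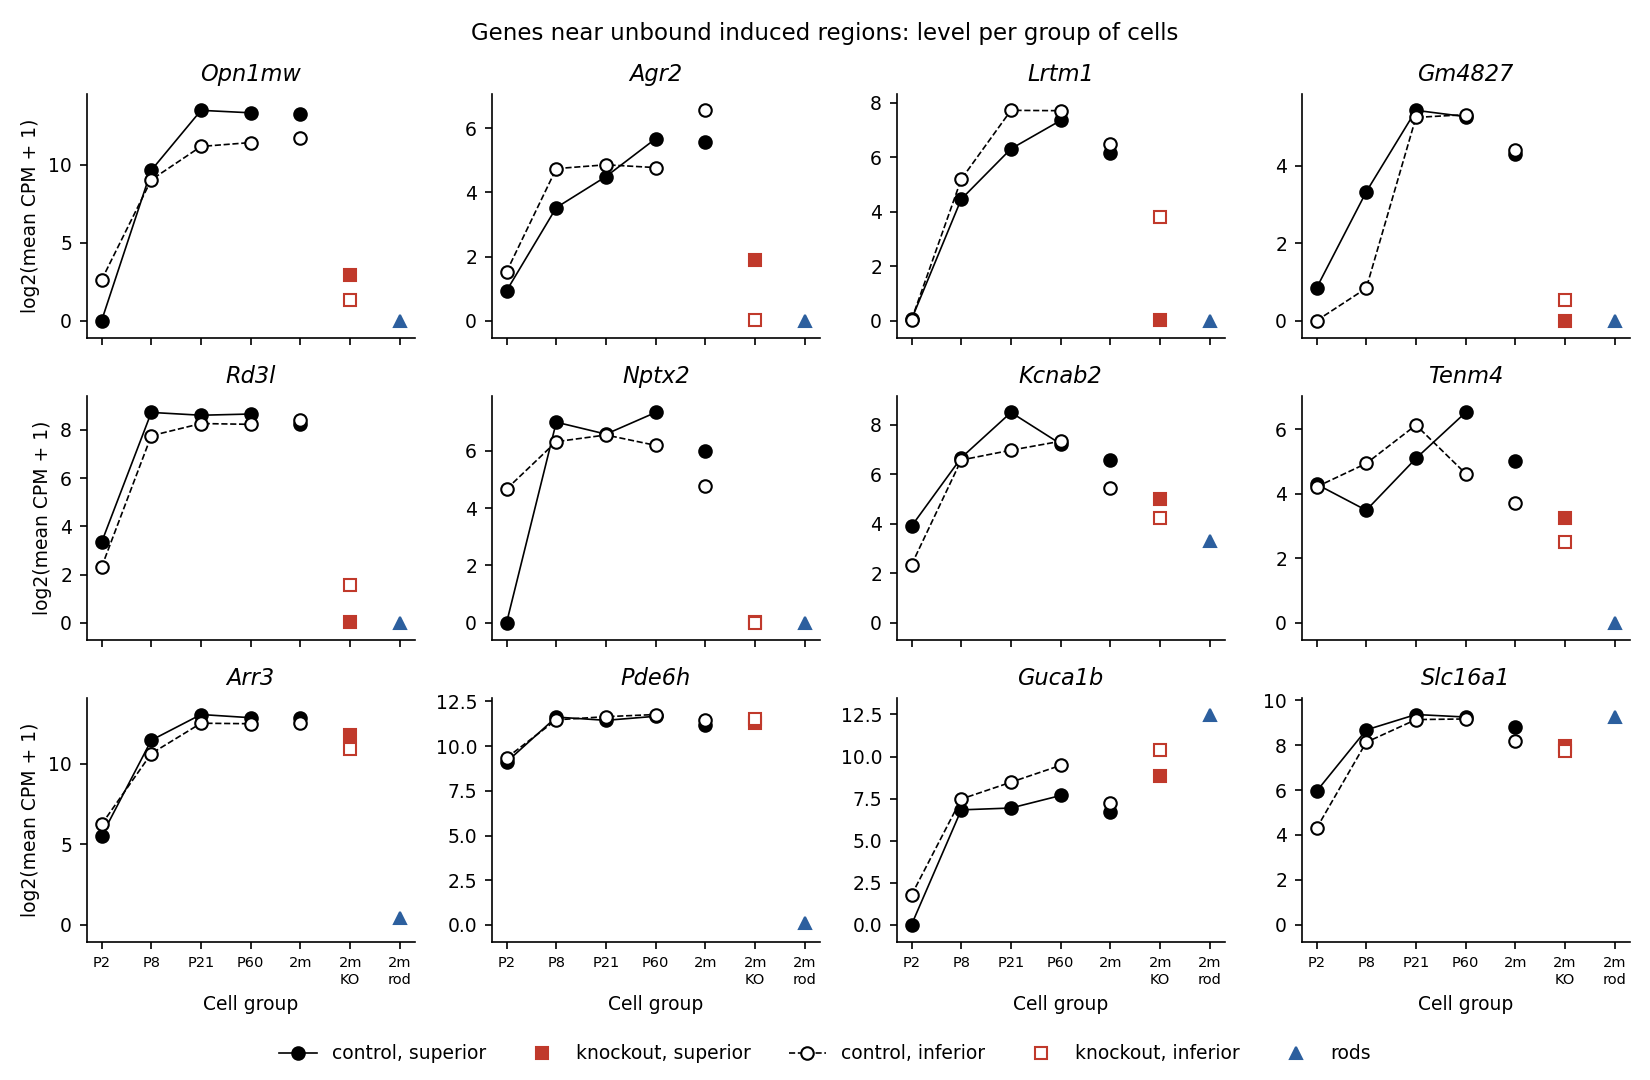
Level, log2(mean CPM + 1), of 12 genes near unbound induced regions in each group of cells: superior (filled circles, solid line) and inferior (open circles, dashed line) control cones, joined by lines from P2 to P60, superior (filled squares) and inferior (open squares) knockout cones, and rods (triangles). Opn1mw, Rd3l and Nptx2 are lower in knockout than in 2m control cones in both zones, while Pde6h differs from 2m controls by 0.11.

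The genes with the most unbound regions did not move as one. Tenm4 had 19 within 50 kb, Camta1 15, Fam189a1 12 and Tshz2 11, all of them genes of 400 kb or longer. None of these met the rule against 2m controls. Tenm4 stood at 31.5 (superior) and 12 CPM (inferior) across 2m controls against 8.43 and 4.69 CPM in the knockout, a mean difference of -1.49 that is -2.40 without library 35, which held the 340 CPM maximum of the superior knockout cells. Camta1, a calmodulin-binding transcription activator, differed by 1.58 superior and -0.03 inferior. Fam189a1 was at 0 in all 98 knockout cells, but over 1 CPM in only 4 of 53 and 4 of 50 control cells. Tshz2 was over 1 CPM in 42 of 53 superior and 20 of 50 inferior controls, against 9 of 50 and 4 of 48 knockout cells. Its superior mean was 43.9 CPM in controls and 34.2 CPM in the knockout, where the highest cell had 1126 CPM. The mean difference of Tshz2 was -1.18, and -2.19 without the highest cell of each group. Kcnab2 had 10 regions and met the rule, at 95 and 43 CPM across 2m controls against 30.9 and 18 CPM in the knockout. Its interval overlaps Nphp4 by 844 bp, and the 2 share all their regions. Osbpl3, an oxysterol-binding protein gene, had 10 regions and fell by 2.37 and 2.45 on the log2 scale against 2m controls. Without the highest cell of each group the differences of Osbpl3 against 2m controls were -2.73 and -2.41, but against P60 controls -1.35 and -0.43, so it no longer met the rule against both. Nup214 and Fam78a, which overlap each other and had 10 regions each, did not meet the rule against 2m controls.

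Pde6h stood near its control level in knockout cones. It had 9 unbound regions, no bound induced region and its nearest bound region at 635 kb, so that, like Opn1mw, it had unbound regions only. Its RNA ran from 1183 to 5292 CPM (median 2159) in superior and from 1314 to 5442 CPM (median 2715) in inferior 2m control cones. In knockout cones it had medians of 2441 and 2817 CPM, and these cells overlapped the controls. The difference was 0.11 in both zones against 2m and -0.35 and -0.22 against P60 controls. Rods had at most 0.646 CPM. Arhgdib, a gene next to Pde6h with the same 9 regions, did not meet the knockout rule, with differences of -0.31 and -1.46. Slc4a8, over which a cluster of 9 lay, differed by -0.62 superior and 1.47 inferior and was over 1 CPM in 9 of 53 and 5 of 50 control cells.

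Where unbound regions stood beside bound induced ones, several genes were close to 0 in the knockout. Rd3l, related to the guanylate cyclase regulator Rd3, spans 2.13 kb and had 8 unbound regions and 1 bound induced region within 50 kb. In 2m controls its median was 233 CPM superior and 238 CPM inferior, and 46 of 53 and 39 of 50 cells had over 1 CPM. In the knockout 0 of 50 and 2 of 48 did, the highest at 68.2 CPM. Nptx2 had 8 unbound and 2 bound induced regions, with means of 62.6 and 26.6 CPM in controls against 0.0273 and 0 CPM in the knockout. Fzd10, a Wnt receptor gene, had 8 and 2 regions, and differences of -5.81 and -2.83. Rgs7, a regulator of G protein signalling, had 8 and 4, with -2.49 and -5.69. Lynx1, a modulator of nicotinic receptors, had 7 and 1, with -3.94 and -4.04. Glb1l2 differed by -7.07 and -6.90 with 1 unbound region, but was over 1 CPM in only 22 of 53 and 13 of 50 control cones. Without the highest cell of each group Glb1l2 still met the rule against 2m controls (-6.95 and -6.65). Against P60 controls the differences were -5.65 and -5.68, but 22.5% of control cells were over 1 CPM, under the 25% the rule asks. Zdhhc14, a palmitoyltransferase gene, had 3 unbound and 1 bound induced region, and differences of -6.04 and -2.19. Pgc, the pepsinogen C gene, had 2 and 4, with -3.97 and -4.73. The 2 unbound regions of Pgc lay 0.207 and 0.255 kb from a receptor-bound region, at the edge of the rule. Gabrr3, a GABA receptor subunit gene, had 1 and 1, with -4.46 and -3.47. Nptx1, a relative of Nptx2 that holds the region of 2253 bp, differed by -3.76 and -2.24. Thrb itself had 6 unbound regions of 219 to 724 bp, all in its 381 kb interval beside 5 receptor-bound regions, and a difference of -2.28 and -2.29.

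**Figure D5:**
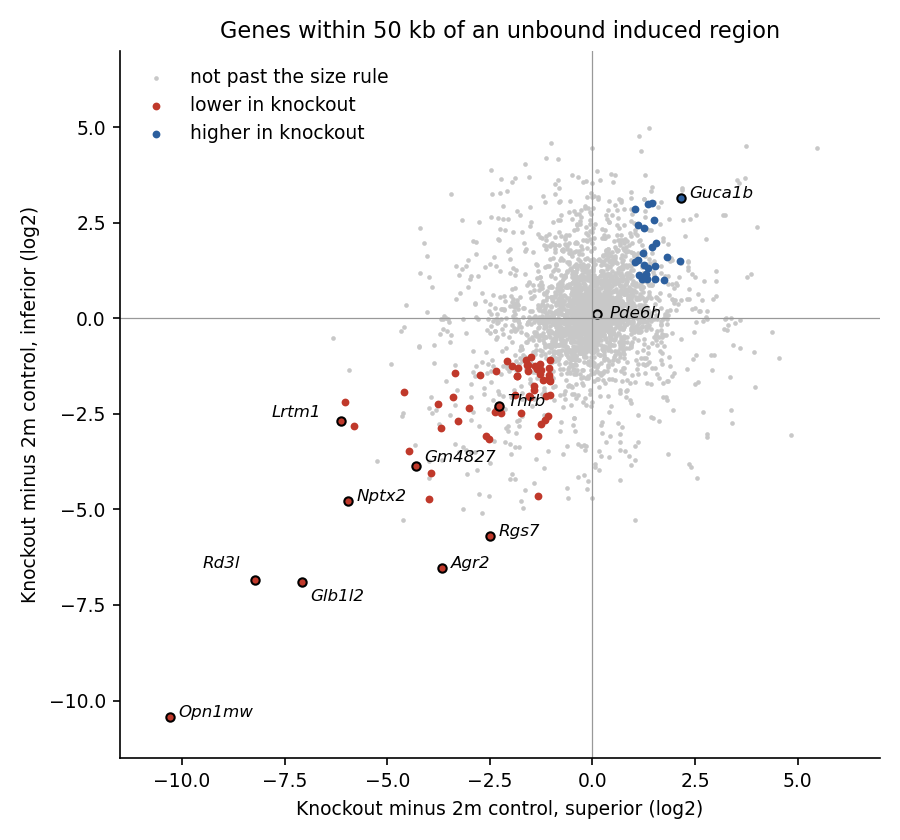
Knockout minus 2m control difference in log2(mean CPM + 1) for superior (x axis) and inferior (y axis) cones, for the 2905 genes within 50 kb of an unbound induced region. The 63 lower genes (red) extend to Opn1mw at -10.30 and -10.43, the 23 higher genes (blue) stay within a few units of 0, and Pde6h lies at 0.11 on both axes.

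The 3 genes higher against both controls were Fhod3, Gins2 and Gse1, with library 35 or without it. Fhod3, a formin of the actin cytoskeleton, rose by 1.53 and 1.36 on the log2 scale and had 2 unbound regions among 9 suppressed ones. Gins2, of the DNA replication complex, rose by 1.53 and 1.04, and Gse1 by 1.14 and 1.13. Gins2 was over 1 CPM in 16 of 53 and 12 of 50 controls and in 15 of 50 and 14 of 48 knockout cells. The median of Gse1 was 4.6 (superior) and 4.23 CPM (inferior) in 2m controls and 1.6 and 10.9 CPM in the knockout. The superior rise of Gse1 was thus in the mean and not in the median. The Gins2 and Gse1 intervals overlap by 118 bp, the same single unbound region is near both, and 13 of 125 cells with over 1 CPM of Gins2 gave identical values for the pair, so their values are uncertain and were not taken as separate cases. Strand is not given for these counts. Guca1b, a guanylate cyclase activator with 5 unbound regions, met the rule against 2m controls only, at 103 and 148 CPM in controls against 461 and 1326 CPM in the knockout. Guca1b was at 5778 CPM in rods, and the summed rod markers were 13965 and 19649 CPM across 2m controls against 14053 and 17822 CPM in the knockout, and their part was not tested. Guca1a, beside it with the same 5 regions, differed by 0.11 and -0.01.

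Gene lists described the neighbours by function, each read against the 1.23% and 1.16% of all genes that were lower and higher against 2m controls. The numbers of list genes near a region are read against the 28.6% of all measured genes that were near. The list genes called lower or higher were the same without library 35. Of 20 measured cone phototransduction genes, 10 had unbound regions near, 37 regions in all. Of these 10, Opn1mw and Arr3 were lower, Guca1b was higher, and Cnga3, Slc24a2, Gnb3, Pde6h, Gnb5, Gucy2e and Guca1a met no knockout rule. Arr3, the cone arrestin that ends the opsin response, had 4 regions, 3 of them 0.127 to 1.22 kb beyond its end. Across 2m controls Arr3 averaged 7466 (superior) and 5992 CPM (inferior), against 3559 and 1946 CPM in the knockout. Both Arr3 and Opn1mw are on the X chromosome, where the Xist values above differ between the collections. The median difference was -0.02 for the 10 genes, 0.06 for the 20 and 0.06 over all measured genes.

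Of 19 photoreceptor transcription factor genes 5 were near (Samd7, Isl2, Prdm1, Nr1d1 and Thrb), and Samd7 and Thrb were lower, Samd7 with differences of -4.59 and -1.94 (median of the 5, -1.76, the value of Isl2, which met no knockout rule, against 0.02 for the 19). Without the highest cell of each group the inferior difference of Samd7 was -0.79 against 2m and -0.19 against P60 controls, and it met neither rule. In 2m controls Samd7 was over 1 CPM in 29 of 53 superior and 3 of 50 inferior cones. Of 17 thyroid hormone pathway genes 5 were near (median of the 5, -0.39, against 0.03 for the 17). Thrb and Klf9, a hormone-responsive transcription factor, were lower, Klf9 with differences of -1.81 and -1.3, while Dbp, Hr and Thra met no knockout rule. Thrb, lower in both lists, is the gene disrupted in the knockout, so its call reflects the genotype itself. Of 20 glycolysis genes 10 were near (median -0.35, against -0.45 for all 20). Ldhb and the phosphofructokinase gene Pfkm were lower, Pfkm against 2m controls only. Slc16a1, the lactate transporter MCT1 with 8 regions, all beyond its end, differed by -0.85 and -0.44. Of 22 synaptic terminal genes 8 were near and of 25 outer segment and cilium genes 5, and none of these met the knockout rule (medians of -0.01 and 0.07, against 0.19 and 0.12 for the whole lists). Of markers of other cells, 1 of 8 Müller glia (Vim), 0 of 3 amacrine and horizontal, 1 of 3 ganglion cell and 2 of 13 rod genes were near. Of these rod genes Gnat1 was lower, against 2m controls only (0.07 superior against P60 controls). Gnat1 was at 45688 CPM in rods. Its medians were 4.29 (superior) and 2.95 CPM (inferior) in 2m control cones, and the part of rod RNA was not tested.

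With age, 95 near genes were at least 4-fold higher at P60 than at P2 in both zones (3.27%, where 2.02% of all genes were) and 82 were lower (2.82%, where 3.22% were). With 2m in place of P60 cones, 89 near genes were higher (3.06%, where 2.65% of all were). By the number of unbound regions the share higher at P60 was 1.52% with none and 11.6% with 5 or more. Opn1mw rose by 11.06 on the log2 scale, Guca1b by 7.69, Lrtm1 by 7.49, Hk2 by 7.47 and Lynx1 by 7.29, as means of both zones. Pde6h rose from 553 and 649 CPM at P2 to 3263 and 3494 CPM at P60. Arr3 rose from 45 and 74.5 CPM to 7406 and 5717 CPM. Where the steps fell between P2 and P60 differed from gene to gene. M opsin was over 1 CPM in 0 of 26 superior and 1 of 30 inferior cones at P2, in 15 of 24 and 12 of 24 at P8, and in all 48 cones at P21. Rd3l was over 1 CPM in 2 of 26 and 1 of 30 cones at P2 and already in 22 of 24 and 18 of 24 at P8. Nptx2 had its largest share of positive cells at P8 among the 5 collections, 17 of 24 superior and 10 of 24 inferior. Gm4827 was over 1 CPM in 7 of 24 superior and 1 of 24 inferior cones at P8 and in 21 and 14 of 24 at P21. Lrtm1 followed a like course, with 4 and 5 of 24 at P8 and 9 and 19 of 24 at P21. The mean of Kcnab2 was 14 (superior) and 4.09 CPM (inferior) at P2 and reached 101 and 94.7 CPM by P8. At P21 the sides stood at 362 and 125 CPM, and at P60 at 149 and 161 CPM. The open regions themselves are known at P30 only, so no order of opening and RNA can be given. Thrb was higher at P2, at 897 and 861 CPM, than at P60, at 358 and 192 CPM, but did not meet the 4-fold rule in both zones. The genes lower at P60 included Isl2 (-5.70) and Prdm1 (-3.18), transcription factors of photoreceptor precursors.

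Against rods, 374 near genes were at least 4-fold higher in 2m cones (12.9%, where 11.1% of all genes were) and 5 were lower (0.172%, where 0.602% were). Genes with 5 or more unbound regions were higher in cones in 20.5%, and those with none in 10.4%. Rods had deeper libraries and fewer genes above 0 per cell than 2m cones (medians of 3893 against 5824 and 5782.5), which moves with this comparison, and its part was not tested.

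Superior and inferior control cones were compared over the 5 collections. None of the 2841 near genes tested passed (limma with the collection as a block, adjusted over 10136 genes, percent called 0), and at an unadjusted p under 0.05 there were 237 (8.34%, where 7% of all genes were). With means of log values in place of the log of means, 7 near genes passed, Opn1mw and Samd7 among them. The smallest adjusted p among near genes by limma was 0.395, for Samd7, which was higher in superior cones in 5 of 5 collections by 3.59 on the log2 scale. Opn1mw was higher in superior cones in 4 of 5 collections (0.74, limma adjusted p = 0.833), and Pde6h in 1 of 5 (-0.12, 0.801). For Opn1mw the exception was P2 (-2.61), when 0 of 26 superior and 1 of 30 inferior cones were over 1 CPM. At P8, P21, P60 and 2m Opn1mw was higher in superior cones by 0.61, 2.32, 1.90 and 1.49. With P2 left out, the smallest limma adjusted p among near genes was 0.0924. Cells of each side were pooled before the test, so its p-values measure the spread between collections.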

How the data were processed

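Expression was read from 1 table of single cells. The authors deposited it as CPM (reads scaled to the library total) for 10390 genes and 430 libraries. Columns sum to 80 to 93% of the CPM total, so some genes are outside the table. The submitters' processing notes name bcl2fastq 2, STAR 2.7.3a, MACS2 2.2.7.1 and GRCm38/mm10, with no role. For the counting tool and the annotation no label or header gives a name. Whole reads were recovered from the CPM steps (100% of values whole within 0.1 reads), with 8.98e+05 to 3.26e+07 reads per library. The region lists hold positions, and the bound list a p-value per region as deposited by the authors, of a kind that is not stated. Whether calling used single or pooled samples, and what made a region induced or suppressed, is not given in the sources used here. Values per ATAC or ChAP sample were not used here.

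Regions of the induced list with 0 bp of overlap to the bound list were the members. Distances were taken between region edges, and between regions and gene intervals of RefSeq (GRCm38.p6), to which 10149 of 10390 gene IDs matched and 10140 were placed on the chromosomes used. Strand, exons and sequences were not used here, so no promoter window or motif is given. Group levels are log2(mean CPM + 1) over cells, so the 1 CPM pseudocount understates changes of low genes. A difference against a group at or near 0 depends on it and is no bound. The knockout rule was 2-fold and the age and rod rules 4-fold, in both zones. These rules carry no test, since the labels name no animal and each group was taken as 1 sample. Zones were tested in limma 3.58.1 (R 4.3.3) over 5 collections with the collection as a block, since each collection gives cells from both sides, for genes averaging at least 5 CPM. The p-values use the Benjamini-Hochberg adjustment over all genes tested. edgeR 4.0.16 and DESeq2 1.42.0 were run on the recovered reads, summed per group, as alternatives. Scripts used Python 3.11.15, pandas 2.3.3 and scipy 1.17.1 and were tested on simulated data.

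Named genes were Opn1mw, Opn1sw and Thrb, the 10 genes with most members and those tied with the last of them, the genes that changed against both controls (at most the 15 largest changes in a direction), and list genes near a member that met a rule. One item of the gene lists is not reported here. Named regions were the 5 widest and the clusters with most members. The members, gene lists and rules were chosen with earlier results of these data known. Alternatives were another overlap or distance for binding, another window or gap, other pseudocounts, means of log values, no filter on low values and P60 controls. Leaving out library 35, leaving out the highest cell of each group and splitting genes by length were chosen after seeing the data.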

Additional observations from a re-analysis of the deposited data

Results flagged for a closer look

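For 56 named genes the superior minus inferior difference was compared over the 5 control collections, and in 6 of them 1 collection stood apart from the other 4 by a gap above 0.71 of the whole range. Chance flags about 1 in 20 such groups, and no cause was tested. All differences are in log2(mean CPM + 1). Osbpl3 differed by 3.28 at P21, where the other collections ran from -0.11 to 0.64. Glb1l2 differed by 6.92 at P21, where the others ran from -0.01 to 0.60. Without the highest cell of each group these 2 genes no longer met the knockout rule against P60 controls, while their mean differences against 2m controls were -2.57 and -6.80, against -2.41 and -6.99 with all cells. Nptx2 differed by -4.66 at P2, when superior cones had 0 CPM in all 26 cells, and by 0.03 to 1.20 otherwise. The glycolysis gene Pfkm differed by 5.25 at P8 against -0.10 to 1.18. The nuclear pore gene Nup214 differed by -1.90 at P60 against 0.56 to 1.5. Guca1a differed by 0.13 at P2 against -0.66 to -0.55.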

How the results depend on the processing

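The number of unbound induced regions was 3587 to 4329 under 3 other definitions of binding, and clusters numbered 372 to 606 with gaps of 5 and 25 kb. With no bound region within 1 kb the median width was 415 bp, and with only bound regions of p at most 0.01 it was 413 bp. The share within 50 kb was 35.1% with that stricter list, and 16.2% and 58.6% lay within 10 and 100 kb. Without a bound induced region near, 31 of 2080 near genes were lower in the knockout (1.49%, where 1.23% of all genes were). Near genes lower in the knockout numbered 118 with means of log values (4.06%, where 2.73% of all genes were), 189 with no filter on low values (6.51% against 4.14%) and 126 against P60 controls (4.34% against 2.39%). Near genes higher in the knockout numbered 11 where the region had to overlap the gene (1.19%, where 1.16% of all genes were), 14 within 10 kb (1.01%) and 36 within 100 kb (0.851%), so the lower share seen at 50 kb was not there for overlapping genes. They numbered 14 without a bound induced region near (0.673% against 1.16%), 14 with a pseudocount of 5 CPM (0.482% against 0.828%), 11 with means of log values (0.379% against 0.602%), 107 with no filter (3.68% against 4.56%) and 49 against P60 controls (1.69% against 2.11%). The cause of these changes was not tested. For lower genes that overlap a region the share was 4.86% of 925 genes, where 1.23% of all were. Of the 37 genes lower against both controls, 36 kept the call with a pseudocount of 5 CPM (Samd7 did not), 33 with means of log values (Stom, Samd7, Osbpl3 and Rab11fip5 did not) and 32 without the highest cell of each group (Samd7, Osbpl3, Rab11fip5, Glb1l2 and Dll1 did not). Among genes with 5 or more unbound regions, 17% were lower with means of log values and 13.4% without the highest cell. In the zone test 0 near genes passed by limma with each collection left out in turn, with other pseudocounts, with no filter and by edgeR (141 at an unadjusted p under 0.05). With no replicate block for the collection, 1 passed by limma, Smug1. With means of log values 7 did, of 16 over all genes, with Opn1mw and Samd7 among them. DESeq2 called 81, of 236 over all 10136 genes, and 41 of the 81 were higher in superior cones. Of 342 values of named genes under alternatives, 320 kept their sign, and 0 that met a rule reversed. Depth limits low genes most, since at 8.98e+05 reads 1 read is above 1 CPM.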
